A study of Arabidopsis thaliana with 12 samples.

Results

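The 95 genes described here had the brightest probes in untreated plants among the probes that name a single gene. Messenger RNA was measured on arrays in Arabidopsis thaliana of the Columbia accession, the laboratory wild type, 1 array per sample. Mechanical wounding, done by cutting the leaves 2 days before sampling, was applied to the plants of 6 samples, and 6 further samples came from untreated plants of the same accession. Harvested organ, plant age, number of plants per sample and the sampling day of the untreated plants are not in the labels, and the effects of sampling day and of wounding cannot be told apart.

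Members were chosen by the deposited intensity alone. Of 692 single-gene probes, which name 691 genes, 633 had a value above 0 in all 6 untreated samples, and the 100 with the highest mean log2 intensity there were taken. Among these 100, the genes PSBW, LHB1B2, XERICO, AT1G54500 and AT2G04540 were set aside, which left 95 members. Ranks in the text count all single-gene probes, these 5 included. The level of a probe also depends on its DNA and its binding, which the sources used here do not describe, so the order is one of probe brightness and is not calibrated to transcripts per cell. At the edge of the choice, the last members were AT3G13120 (mean log2 0.51 ± 0.41), AT4G21170 (0.50 ± 0.27) and AT3G61870 (0.49 ± 0.14), and the first genes outside were AT3G50880 (0.48 ± 0.094), AT1G44830 (0.47 ± 0.32) and AT5G19900 (0.45 ± 0.16; SD, n = 6). The border between inside and outside was thus narrower than the spread over arrays.

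As background, the messenger RNA pool of a green leaf is dominated by nuclear genes for the chloroplast, above all those of light harvesting, the photosystems and carbon fixation. Their products are made in the cytosol as precursors, imported into the plastid and assembled with subunits that the plastid genome encodes. Wounding is known to start a fast jasmonate response in leaves and to lower many photosynthesis transcripts within hours.

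These well-known leaf transcripts were scarcely represented by single-gene probes. Of 50 listed genes of the photosystems, light harvesting and electron transport, 4 had such a probe, and 2 of these, PSBW and LHB1B2, ranked 4 and 13 among untreated plants and are among the genes set aside. The other two lay outside the members, with PSAN at rank 123 and PSBY at rank 132. Of 20 Calvin cycle genes, 2 had a probe, with PRK at rank 125 and SBPASE at rank 294, and of 20 tetrapyrrole synthesis genes only CHLM did, at rank 451. None of 6 housekeeping genes and none of 8 wounding and jasmonate genes had such a probe. The lists were partial: the members NdhS, PSB27 and AT1G74470, whose roles in the chloroplast are given below, were not on them. Of 24 marker genes of leaf, guard cell, phloem, trichome, root, seed and flower, LHB1B2 was the only one with a single-gene probe, so the cell types behind the values could not be checked. Set among all 3175 probes above 0 in the untreated samples, those naming several genes or none included, 17 members were among the first 100 and the last member had rank 564.

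Some facts about the arrays bear on every result below. Wounded replicate 4 stood apart: over all probes, its log2 values correlated with the other arrays at r between 0.437 and 0.514, while the lowest r among the other 11 was 0.871. A set of 5 pairs of arrays (untreated 1 and 2, 3 and 4, 5 and 6, wounded 2 and 3, 5 and 6) were very alike, with r between 0.952 and 0.984, and the labels do not say whether arrays came from separate plants. The p-values therefore measure the spread between arrays, which may be technical. Values of 100 recurred 9 times in the table as a ceiling, 2 of them in a member.

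What the members encode was mixed. In 41 of the 95 a role was known well enough to be stated, as general background on these loci, and 54 are given by their locus or symbol only. Chloroplast proteins made up the largest stated class with 13 members, followed by 7 of the nucleus, 7 of the cell wall, glycosylation and membranes, 5 of organelle gene expression, 5 of signalling and defence and 2 of the mitochondrion. The other roles were those of a proteasome subunit and of CCL, a clock-controlled transcript. Roles were given to members only, so the class sizes cannot be set beside those of all single-gene probes. Of the first 20 members, 8 had a stated role, a share close to the 41 of all 95. By chromosome, as the locus names give it, chromosome 4 held 25 members, or 26.3%, against 17.3% of all single-gene probes, and chromosome 5 held 11, or 11.6%, against 20.7%. No pair of members lay next to each other among protein-coding genes of the TAIR10.1 annotation.

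The order of untreated levels was steep at its top and nearly flat further down. Mean log2 intensity was 5.97 for the first member and 0.49 for the last, a 44.6-fold span, of which the first 10 members covered 9.58-fold. Of the 95 means, 20 lay above 2 and 56 above 1, and their median was 1.12, where the median over the 633 probes was -0.96. The members together took between 58.3% and 65.2% of the summed single-gene intensity in the 5 wounded arrays other than replicate 4 and 29.1% in replicate 4, against 53.0% to 60.5% in the untreated arrays. In replicate 4 the members thus held a smaller part of the signal than in any other array.

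AT4G31530 was the brightest member on average in both groups. AT4G31530 ranged from 71.05 to 100 (median 81.3) in 5 wounded arrays, with 4.63 in wounded replicate 4, and from 41.8 to 89.8 (median 65.03) in untreated arrays. The values of wounded replicates 2 and 3 stood at the ceiling of 100, so its level there is a lower bound. The groups overlapped through the untreated arrays 3 and 4, which were the brightest of their group.

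AT3G09850, which encodes a G-patch domain protein of a kind found in RNA-binding complexes, ranked 2. Intensities of AT3G09850 were 30.1 to 63.5 with a median of 32.9 in 5 wounded arrays, listed at 0 in wounded replicate 4, and in untreated arrays 21.04 to 45.5 with a median of 36.8. Wounded replicate 1 lay far above the other wounded arrays. AT2G27290 had rank 3. AT2G27290 had a lowest, median and highest intensity of 33.8, 37.6 and 42.9 in 5 wounded arrays and 7.104 in wounded replicate 4, against 19.2, 23.7 and 28.3 in untreated arrays. Without replicate 4, each wounded array was brighter than each untreated one as deposited, as was so for 0.812% of all probes. After quantile normalization the groups overlapped. AT4G17070 had rank 5, below PSBW. AT4G17070 ranged from 25.01 to 54.01 (median 43.5) in 5 wounded arrays, with 8.25 in wounded replicate 4, and from 11.2 to 30.3 (median 22.9) in untreated arrays. Its groups overlapped, with untreated replicate 3 the lowest array of its group.

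The next members were AT1G17160, a plastid ribokinase that returns ribose to sugar phosphate metabolism, and AT4G16410. Intensities of AT1G17160 were 7.12 to 10.7 with a median of 9.599 in 5 wounded arrays, 1.24 in wounded replicate 4, and in untreated arrays 11.2 to 12.96 with a median of 12.6. All 6 wounded arrays were dimmer than every untreated array as deposited, as was so for 4.36% of all probes. After quantile normalization this no longer held. AT4G16410 had a lowest, median and highest intensity of 6.27, 7.19 and 9.88 in 5 wounded arrays and 0.6804 in wounded replicate 4, against 9.32, 10.8 and 13.1 in untreated arrays. Here the wounded range reached into the untreated one. The quantile-normalized log2 differences (wounded minus untreated) without replicate 4 were -0.64 ± 0.17 (SE) for AT1G17160 and -0.67 ± 0.25 (SE) for AT4G16410, neither past the threshold (limma adjusted p = 0.0742 and 0.162).

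**Figure D1:**
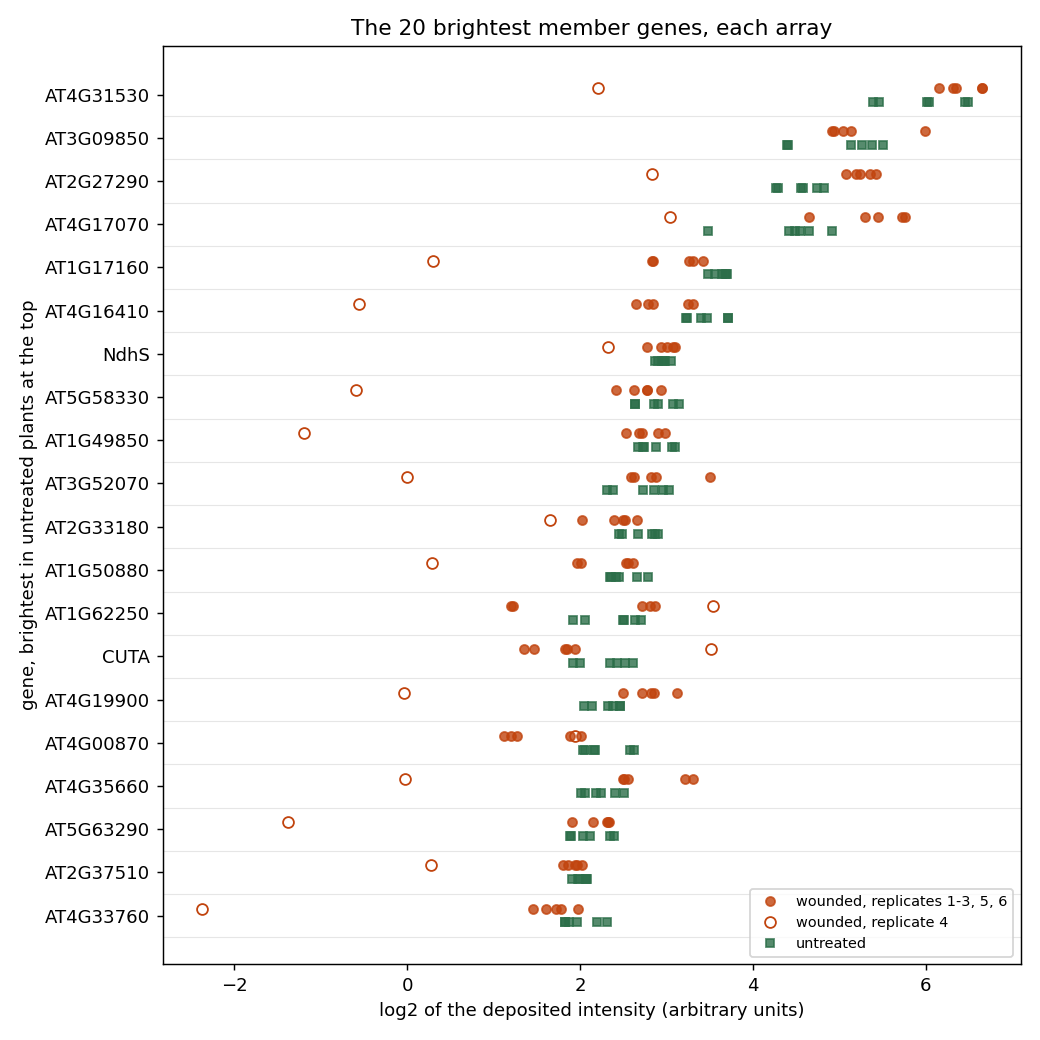
Log2 of the deposited intensity (horizontal axis, arbitrary units) of the 20 brightest members, 1 row per gene with the brightest in untreated plants at the top; circles are wounded arrays, open for replicate 4, and squares below them are untreated arrays. The open circles lie far to the left for most genes, to the right for AT1G62250 and CUTA, and are missing for AT3G09850, which was listed at 0 there.

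Ranks of the remaining genes among the first 20 members were 12 in wounded plants without replicate 4 and 10 in untreated plants for AT1G49850, 9 and 11 for AT3G52070, 14 and 12 for AT2G33180, and 15 and 14 for AT1G50880. They were 10 and 20 for AT4G35660, 16 and 21 for AT5G63290, and 22 and 23 for AT2G37510. AT4G35660 moved up the most of these.

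Chloroplast members spanned most of the order, between rank 6 and rank 93. NdhS (CRR31), the subunit that forms the ferredoxin-binding site of the chloroplast NADH dehydrogenase-like complex in cyclic electron flow, had one of the most even levels of all. NdhS ranged from 6.85 to 8.58 (median 8.02) in 5 wounded arrays, with 4.99 in wounded replicate 4, and from 7.29 to 8.32 (median 7.77) in untreated arrays. Its SD over untreated arrays was 0.066 on the log2 scale, where the median over members was 0.21. AT5G58330, NADP-dependent malate dehydrogenase, which exports reducing power as malate, overlapped between the groups outside replicate 4. Intensities of AT5G58330 were 5.35 to 7.63 with a median of 6.83 in 5 wounded arrays, 0.665 in wounded replicate 4, and in untreated arrays 6.19 to 8.81 with a median of 7.34. CUTA, a plastid protein of a metal-binding family, was dimmer in most wounded arrays but brightest in replicate 4. CUTA had a lowest, median and highest intensity of 2.55, 3.54 and 3.83 in 5 wounded arrays and 11.5 in wounded replicate 4, against 3.79, 5.23 and 6.13 in untreated arrays.

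Further chloroplast members sat in the middle of the order. AT5G17630, which carries xylulose phosphate across the plastid envelope, had rank 24 in wounded plants without replicate 4 and 29 in untreated plants, and AT1G74470, the geranylgeranyl reductase that makes the side chain of chlorophyll and tocopherols, had ranks 33 and 30. FZL, a dynamin-like protein that shapes thylakoids, had ranks 32 and 48. AT3G47650, a zinc-finger chaperone of Rubisco assembly, had ranks 40 and 49, and AT3G58610, the ketol-acid reductoisomerase of branched-chain amino acid synthesis, had ranks 70 and 52. CCS, which loads copper into superoxide dismutase, had ranks 107 and 72. CCS ranged from 0.902 to 1.39 (median 1.36) in 5 wounded arrays, with 0.163 in wounded replicate 4, and from 1.64 to 1.84 (median 1.71) in untreated arrays. All wounded arrays were below all untreated ones, with a log2 difference without replicate 4 of -0.34 ± 0.092 (SE) (limma adjusted p = 0.0721).

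Near the lower end, AT1G68660, an adaptor that hands substrates to the Clp protease, had ranks 86 and 78. AT1G74730, a thylakoid protein needed for normal grana stacking and energy dissipation, had ranks 120 and 90. PSB27, an assembly and repair factor of photosystem II, was one of the least even members. Intensities of PSB27 were 0.525 to 2.46 with a median of 2.04 in 5 wounded arrays, 1.48 in wounded replicate 4, and in untreated arrays 0.7303 to 2.48 with a median of 1.75. The groups overlapped, with wounded replicate 1 and untreated replicates 3 and 4 the lowest of their groups. Over the 13 chloroplast members, 9 had a difference below 0 without replicate 4, the median was -0.23 and none passed. Of all 95 members, 63 were below 0 in this fit, with a median of -0.15.

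Of organelle gene expression, AT4G33760, an organellar aspartyl-tRNA synthetase type, was the brightest at rank 24, with 2.74, 3.304 and 3.94 as lowest, median and highest intensity in 5 wounded arrays and 0.193 in replicate 4, against 3.54, 3.79 and 4.98 in untreated arrays. The pentatricopeptide repeat genes AT3G13150, AT4G14050 and AT3G26630, whose products bind organelle transcripts, had ranks 25, 47 and 39 in wounded plants without replicate 4 and 34, 41 and 51 in untreated plants. AT3G13120, the plastid ribosomal protein S10, was at rank 94 in wounded plants and 98 in untreated plants. The median difference of these 5 genes was 0.04 without replicate 4 and -0.07 over 12 arrays, so that 1 array turned its sign, and none passed in either fit.

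Mitochondrial members were AT4G32060, a calcium-sensing regulator of mitochondrial calcium uptake, and AT4G39690, a subunit of the complex that holds cristae in shape. AT4G32060 ranged from 3.34 to 4.24 (median 4.03) in 5 wounded arrays, with 1.53 in wounded replicate 4, and from 2.995 to 3.39 (median 3.09) in untreated arrays. AT4G32060 had almost the same level on every untreated array (SD 0.063). As deposited, its 5 wounded arrays other than replicate 4 were each above at least 5 of the 6 untreated arrays, and after quantile normalization they lay above all untreated ones. AT4G39690 had ranks 27 in wounded plants without replicate 4 and 33 in untreated plants.

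The brightest transcription factor gene with a stated role was AT4G00870, a basic helix-loop-helix protein of the group that represses jasmonate responses. Intensities of AT4G00870 were 2.17 to 4.02 with a median of 2.404 in 5 wounded arrays, 3.83 in wounded replicate 4, and in untreated arrays 4.09 to 6.15 with a median of 4.504. On the deposited scale all 6 wounded arrays were below all untreated ones, as was so for 4.36% of all probes. After quantile normalization this no longer held. The log2 difference after quantile normalization was -0.60 ± 0.24 (SE) over 12 arrays and -0.73 ± 0.21 (SE) without replicate 4 (limma adjusted p = 0.364 and 0.0827), so it did not pass in either fit. Rank in wounded plants without replicate 4 was 34, against 19 in untreated plants.

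Except AT3G09850, the other nuclear members stood lower in the order. They were chr31, a chromatin remodelling factor of RNA-directed DNA methylation, DME, the DNA glycosylase that removes methylated cytosine, IYO, a partner of RNA polymerase II, the homeodomain gene AT4G03090 (NDX) and AT3G25840, a kinase of the splicing machinery. chr31 had a lowest, median and highest intensity of 1.802, 1.95 and 2.196 in 5 wounded arrays and 0.743 in wounded replicate 4, against 2.46, 2.62 and 2.83 in untreated arrays. Every wounded array was dimmer than every untreated one as deposited; after quantile normalization this no longer held. DME had ranks 113 and 77, IYO 80 and 59, AT4G03090 75 and 61 and AT3G25840 61 and 92, in each case wounded plants without replicate 4 before untreated plants. Of the 7 nuclear members, 6 had a difference below 0 without replicate 4 after quantile normalization, and none passed. Their median was -0.33, or -0.51 over 12 arrays. Of all 95 members, 63 were below 0 without replicate 4, with a median of -0.15, or -0.34 over 12 arrays.

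Signalling and defence members all had mean log2 levels between 0.66 and 1.24 in untreated plants. They were the kinase genes ATSIK and AT1G61590, the genes AT1G72890 and AT3G04210 of the TIR-NBS class of immune receptors, and AT4G31470 of the CAP superfamily, which includes pathogenesis-related proteins. AT1G72890 had the lowest positive value of a member in replicate 4. AT1G72890 ranged from 0.849 to 1.45 (median 1.199) in 5 wounded arrays, with 0.00466 in wounded replicate 4, and from 1.42 to 1.87 (median 1.54) in untreated arrays. None of the 5 passed, and their median difference was -0.13 without replicate 4.

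Of the cell wall and membrane class, AT4G19900, a glycosyltransferase family gene, ranked 11 in wounded plants without replicate 4 and 18 in untreated plants. Intensities of AT4G19900 were 5.66 to 8.68 with a median of 7.06 in 5 wounded arrays, 0.976 in wounded replicate 4, and in untreated arrays 4.12 to 5.497 with a median of 5.096. Outside replicate 4 its groups did not overlap, yet the log2 difference of 0.49 ± 0.12 (SE) did not pass (limma adjusted p = 0.0636). AT1G35510, of the O-fucosyltransferase family, had the smallest spread of any member over untreated arrays (SD 0.052). AT1G35510 had a lowest, median and highest intensity of 1.33, 2.01 and 2.66 in 5 wounded arrays and 0.419 in wounded replicate 4, against 2.73, 2.85 and 3.004 in untreated arrays. Here too all wounded arrays lay below the untreated ones. The others were AT3G50270 of the BAHD acyltransferases (rank 59 in wounded plants without replicate 4, 45 in untreated plants), AT1G34270 of the exostosin family (79 and 57), AT4G18180 of the pectin lyase-like family (66 and 63), AT4G40080 of the ENTH/ANTH membrane adaptors (114 and 97) and AT4G22490 of the lipid transfer family. Of the 7 members of this class, 6 had a difference below 0 without replicate 4, with a median of -0.38, where 63 of all 95 members were below 0 with a median of -0.15. AT4G22490 alone passed as lower, as did 1.25% of all probes, and it did not pass when alike arrays entered as a random block (limma adjusted p = 0.390). CCL, a short-lived transcript under clock control, ranked 19 in wounded plants without replicate 4 and 27 in untreated plants, and AT5G23540, a deubiquitinating subunit of the proteasome, ranked 50 and 44.

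Within the untreated group the order of neighbours was mostly not firm. Of the 94 pairs of members next to each other, 3 stood in the same order on all 6 untreated arrays, and in 4 the mean gap was larger than its SD over arrays. The 3 pairs were AT4G31530 over AT3G09850, AT3G09850 over AT2G27290, and AT4G16410 over NdhS. The other gap above its SD was that of AT4G17070 over AT1G17160, at 0.79 ± 0.52 (SD, n = 6). All other neighbours did not differ beyond their spread. The SD over untreated arrays lay between 0.052 and 0.74 per member, with a median of 0.21, and the median over the 633 eligible probes was 0.29. After AT1G35510, the most even were AT4G32060, NdhS, CCS, AT2G37510 and chr31. The least even were AT2G22890 and PSB27, followed by AT3G09850, AT4G17070, AT3G52550 and AT4G31530.

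The order in wounded plants, whose values played no part in the choice, was close to that in untreated plants once replicate 4 was left out. Spearman's rho over the 95 members was 0.916 between the mean of the 5 wounded arrays and that of the untreated arrays, and 0.866 with all 6 wounded arrays. Taken singly, the 5 wounded arrays had a rho between 0.829 and 0.902 with the untreated mean, and replicate 4 had 0.394. Each untreated array had a rho between 0.864 and 0.896 with the mean of 4 untreated arrays, its alike partner left out. The untreated arrays' own values chose and ordered the members, and their rho was taken against 4 arrays and not 6, so these values are no measure of an order without wounding. These rhos describe genes measured on shared arrays and are not replicates of each other.

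**Figure D2:**
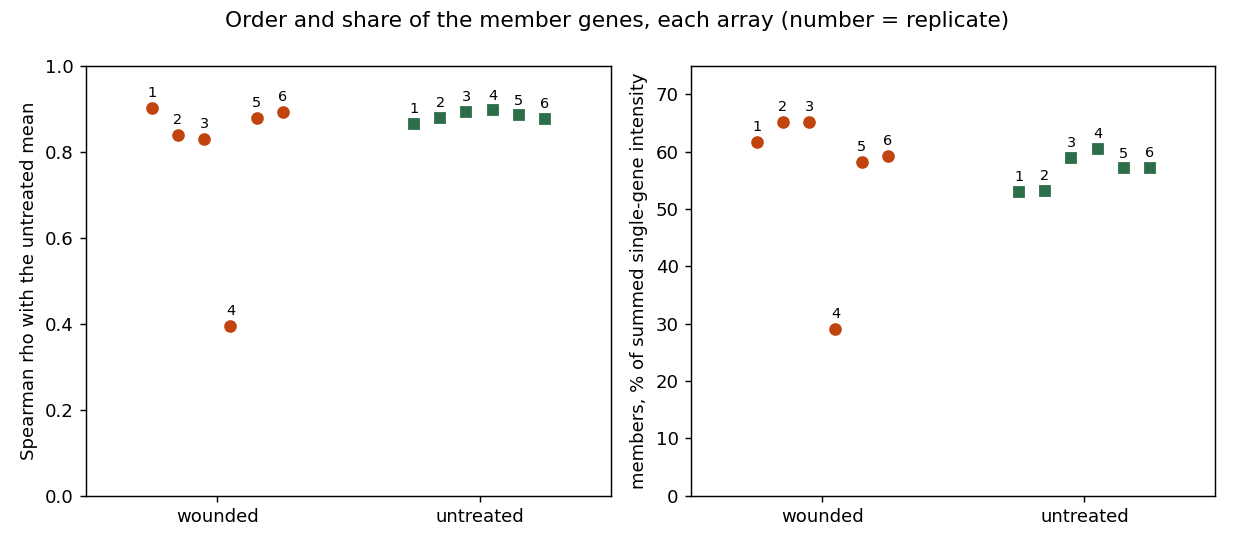
Left, Spearman's rho of the members' log2 intensity on each array with the untreated mean (for an untreated array, the mean of 4 others); right, the members' share of the summed intensity of single-gene probes, in percent; circles are wounded and squares untreated arrays, numbered by replicate. Wounded replicate 4 lies at 0.394 and 29.1%, below every other array in both panels.

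**Figure D3:**
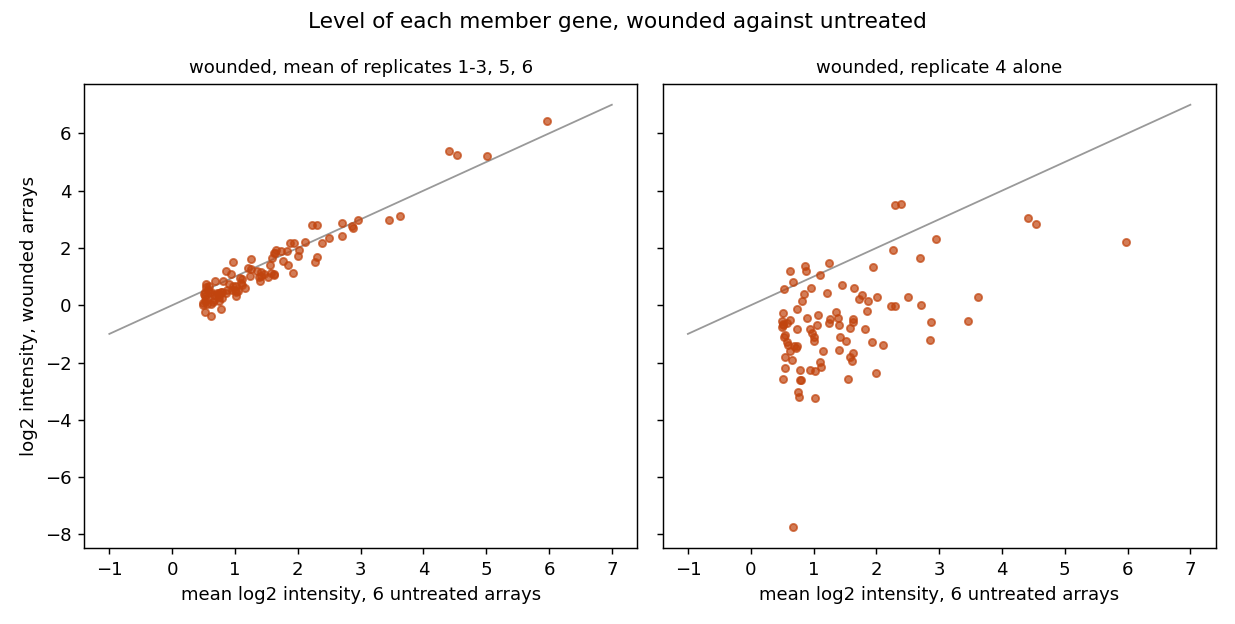
Log2 intensity of each of the 95 members in wounded plants (vertical axis) against the mean log2 intensity of 6 untreated arrays (horizontal axis), for the mean of 5 wounded arrays on the left and for wounded replicate 4 on the right; the line marks equal levels. Points follow the line on the left with a rho of 0.916, and most lie well below it on the right, where the rho is 0.394 over 94 members.

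Order was kept where the gap was wide. Of the 1670 pairs of members that differed by over 1 on the log2 scale in untreated plants, 99.9% kept their order in the mean of the 5 wounded arrays. The same held for 95.1% of 1084 pairs with a gap of 0.5 to 1 and 71.5% of 1711 pairs with a smaller gap. In replicate 4 alone these shares were 77.5% of 1579, 60.7% of 1082 and 51.8% of 1710 pairs. Neighbours kept their order in the mean without replicate 4 in 50 of 94 cases, and on each of the 5 arrays in 18 of 94. AT4G31530 stayed above AT3G09850 on all 5 of these arrays, and AT4G17070 above AT1G17160 on all 5, while AT3G09850 was above AT2G27290 on 1 of 5 and AT4G16410 above NdhS on 3 of 5.

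Among the first 10 members, 8 were also among the first 10 in wounded plants without replicate 4, and 17 of the first 20 were among the first 20. CUTA (rank 30 in wounded, 17 in untreated plants), AT4G00870 (34 and 19) and AT4G33760 (29 and 24) left the first 20. AT4G39760 (17 and 25), CCL (19 and 27) and AT4G32060 (21 and 32) entered it. Of all 95, 79 were within the first 100 single-gene probes of wounded plants and all 95 within the first 200; with replicate 4 the counts were 77 and 94. The median change of rank was 9 places without replicate 4 and 10 with it. Largest were the drops of AT4G02040 (rank 180 in wounded, 84 in untreated plants), AT4G22490 (161 and 96) and AT2G28755 (136 and 73). Since members were taken by their untreated rank, a change of place across rank 100 could only be downward. The 16 genes that took their places included AT3G04650 at rank 56 in wounded and 112 in untreated plants, AT1G74070 at 62 and 143, and PSBY at 91 and 132.

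**Figure D4:**
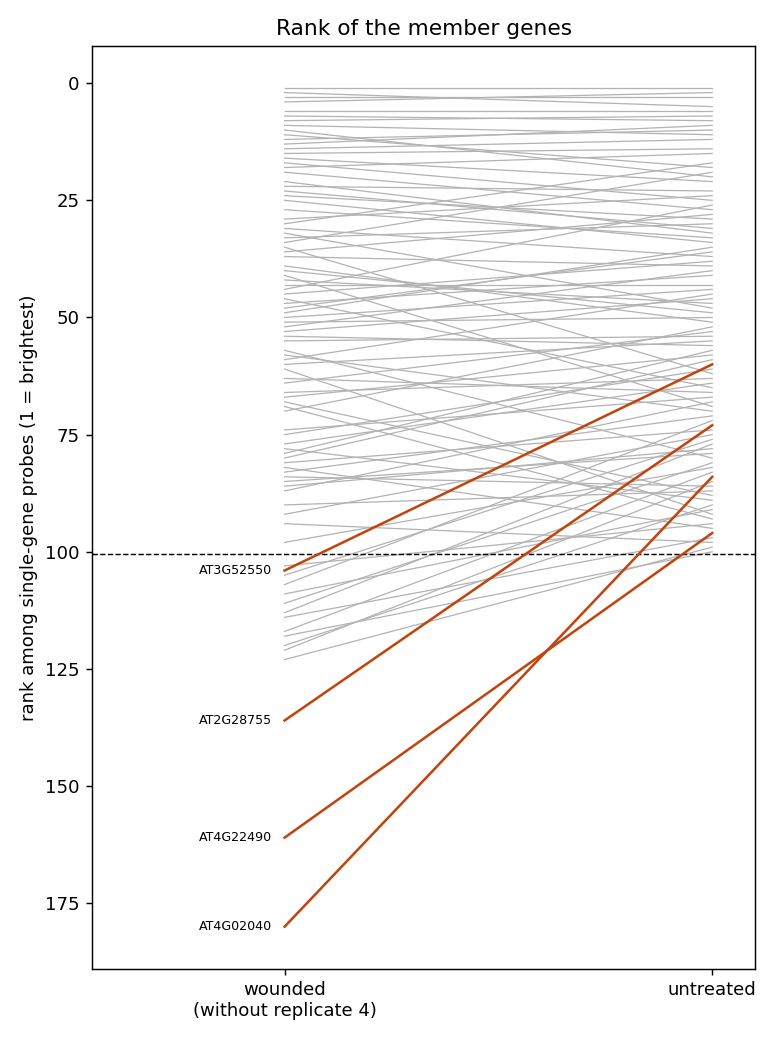
Rank of each of the 95 members among single-gene probes (vertical axis, 1 is the brightest) in wounded plants without replicate 4 on the left and in untreated plants on the right, joined by a line; the dashed line marks rank 100. Darker lines are the 4 members that moved by 40 places or more, with AT4G02040 at 180 in wounded and 84 in untreated plants.

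The comparison of wounded with untreated plants was fitted with limma on all probes after quantile normalization, and only the members' rows are read here. Over 12 arrays, 0 of 95 members passed an adjusted p of 0.05, nor did any of the 3233 probes (0%, higher or lower). The unadjusted p was under 0.05 for 15 members and 376 probes. Without wounded replicate 4, 1 member of 95 was higher and 4 were lower in wounded plants, where 0.968% of 3203 probes were higher and 1.25% lower. When alike arrays entered as a random block, 0 members passed in this 11-array fit (0% of all probes); 16 members had an unadjusted p below 0.05, and the smallest adjusted p was 0.149. Since the members were chosen for high untreated values on the same arrays, the choice itself moves these differences downward, and the counts are given as a description.

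AT4G02040 had the smallest adjusted p. AT4G02040 ranged from 0.644 to 0.984 (median 0.6804) in 5 wounded arrays, with 0.329 in wounded replicate 4, and from 1.37 to 1.76 (median 1.54) in untreated arrays. All wounded arrays were below all untreated ones. The log2 difference was -0.97 ± 0.22 (SE) over 12 arrays and -0.77 ± 0.096 (SE) without replicate 4 (limma adjusted p = 0.193 and 0.00722).

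AT4G22490 showed the same pattern at a lower size. Intensities of AT4G22490 were 0.658 to 1.13 with a median of 0.821 in 5 wounded arrays, 0.1696 in wounded replicate 4, and in untreated arrays 1.19 to 1.72 with a median of 1.39. Its difference without replicate 4 was -0.53 ± 0.10 (SE) (limma adjusted p = 0.02703). AT2G28755 was -0.66 ± 0.15 (SE) (adjusted p = 0.0419) and AT4G05070 -0.73 ± 0.15 (SE) (adjusted p = 0.0371) in the same limma fit. AT4G05070 had a lowest, median and highest intensity of 1.39, 2.28 and 2.98 in 5 wounded arrays and 0.414 in wounded replicate 4, against 3.51, 3.59 and 4.56 in untreated arrays. In AT2G28755 too the groups did not overlap.

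AT4G09620 was the only member that passed upward after quantile normalization without replicate 4; with other scalings AT2G27290 and AT4G32060 did too. AT4G09620 ranged from 2.198 to 3.79 (median 2.54) in 5 wounded arrays, with 0.509 in wounded replicate 4, and from 1.701 to 2.19 (median 2.05) in untreated arrays. The 5 wounded arrays were all above the untreated ones and replicate 4 was below them. The difference was 0.67 ± 0.15 (SE) without replicate 4 (limma adjusted p = 0.0408) and 0.31 ± 0.36 (SE) over 12 arrays.

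**Figure D5:**
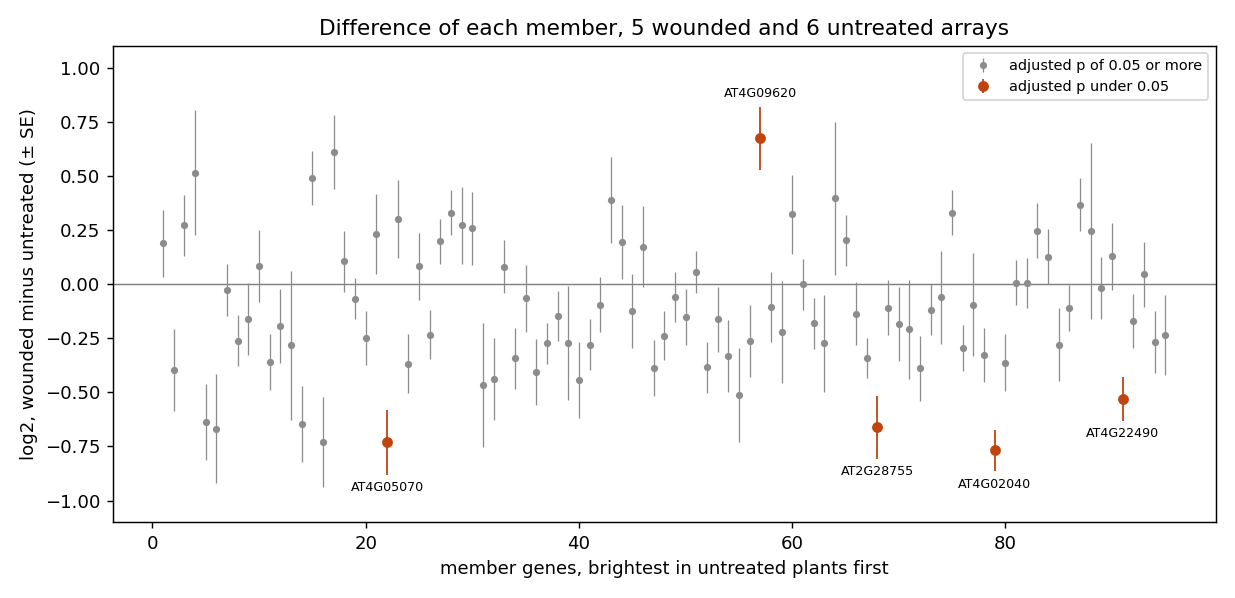
Log2 difference, wounded minus untreated, with its standard error (vertical axis) for the 95 members in their untreated order (horizontal axis), from the limma fit on 5 wounded and 6 untreated arrays. The 5 named points passed an adjusted p of 0.05, AT4G09620 above 0 and 4 genes below.

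Which members passed depended on the scaling between arrays. Quantile normalization by construction gives probes of the same rank nearly the same value on every array. A probe's values then differ between arrays mainly through its rank. AT2G27290 had a log2 difference of 0.27 ± 0.14 after quantile normalization without replicate 4, 1.05 ± 0.22 after median centring and 0.71 ± 0.14 with the values as deposited (limma adjusted p = 0.294, 0.0346 and 0.0280). AT4G32060 had 0.33 ± 0.10, 0.62 ± 0.10 and 0.28 ± 0.12 (limma adjusted p = 0.112, 0.0146 and 0.129). Of the 95 members, 5 passed after quantile normalization (2.22% of all probes, higher or lower), 5 after median centring (2.25% of all probes) and 4 as deposited (2.72% of all probes). A total of 7 members passed under at least 1 of the 3 scalings, and 2, AT4G02040 and AT4G22490, under all of them. These 3 fits took each array as its own sample, alike or not. When alike arrays entered the quantile fit as a random block, neither gene passed (limma adjusted p = 0.149 for AT4G02040 and 0.390 for AT4G22490).

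Groups that did not overlap were counted on the quantile-normalized values. Over 12 arrays, 8 members lay wholly lower in wounded plants (2.17% of all probes) and 0 wholly higher (1.33% of all probes). Without replicate 4, the counts were 8 lower (3.15% of all probes) and 4 higher (2.65% of all probes). The 8 were AT2G33180, AT4G05070, AT1G35510, AT4G14050, CCS, AT2G28755, AT4G02040 and AT4G22490, and the 4 were AT4G19900, AT4G32060, AT4G09620 and AT3G44570. With the values as deposited, 10 members lay wholly lower over 12 arrays (4.36% of all probes) and 0 wholly higher (0.217% of all probes). Without replicate 4, these deposited counts were 12 lower (6.68% of all probes) and 3 higher (0.812% of all probes). The pull of the choice of members toward lower wounded values applies to all these counts too.

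Over 12 arrays the members' median difference was below 0 under every scaling, the side to which the choice of members itself pulls. Without replicate 4 its sign depended on the scaling. Over 12 arrays the median log2 difference was -0.34 after quantile normalization, with 76 of 95 below 0, where the median of all probes was -0.02. After median centring and as deposited it was -0.13 and -0.48, where all probes had 0.03 and -0.32. Without replicate 4 it was -0.15 after quantile normalization with 63 of 95 below 0, 0.06 after median centring with 37 below 0, and -0.28 as deposited with 67 below 0. The medians of all probes in these last 3 fits were -0.02, 0.02 and -0.31. Without replicate 4, the members' median thus lay below that of all probes after quantile normalization and slightly above it with the other scalings.

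Wounded replicate 4 had a value below the lowest untreated array for 85 of the 95 members and above the highest for 7, with a median of 2.01 log2 units under the untreated mean. Its part in the 12-array result was measured by leaving it out of the fit, as above. The quantile normalization was made once on all 12 arrays, so replicate 4 still entered that step. The other wounded arrays were not uniform either: 49 members were dimmer on each of wounded replicates 1 to 3 than on 5 and 6, and 20 were brighter on each. The array medians over all probes were -1.27, -1.59 and -1.59 for replicates 1 to 3 and -1.05 and -1.07 for 5 and 6, and the part of this in the members' values was not tested. The widest such gap was that of AT1G62250. Intensities of AT1G62250 were 2.31 to 7.298 with a median of 6.57 in 5 wounded arrays, 11.7 in wounded replicate 4, and in untreated arrays 3.77 to 6.55 with a median of 5.66. It lay between 6.57 and 7.298 on wounded replicates 1 to 3 and between 2.31 and 2.34 on 5 and 6, so that no common wounded level can be given.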

How the data were processed

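Messenger RNA was measured on 12 arrays, 6 of wounded and 6 of untreated plants. The authors deposited 1 table of linear intensity for 3439 probes, with 0 for a missing value, per the file headers and the values. For these deposited intensity values, array type, background correction and scaling were not given in the sources used here. Array means lay between 0.983 and 1.09, and between 4.77% and 5.90% of values per array were 0. The number of arrays limits the precision.

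The labels gave the group and replicate number of each sample. Probes were named by the platform annotation: 692 name 1 gene, 870 several and 1877 none, and 690 of the 692 matched a RefSeq gene (TAIR10.1). Levels and ranks use log2 of the deposited intensity. For the comparison, log2 values were quantile-normalized once over all 12 arrays, with zeros missing, and arrays were left out only afterwards. Every probe with at least 4 values per group was fitted with lmFit and eBayes in limma 3.58.1 (R 4.3.3). The p-values are two-sided and Benjamini-Hochberg adjusted over all probes, with a threshold of 0.05. The fit was checked on simulated data with known changes and independent arrays. That check does not cover alike arrays or an array that stands apart. Descriptions were computed in Python 3.11.15 with pandas 2.3.3 and scipy 1.17.1.

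Genes were named by place in the order (the 20 brightest and those at the border), by passing the threshold, by the size of the difference, by the spread over untreated arrays, and by the gene lists. In addition every member with a stated role was named, and the largest changes of rank were picked after the values were seen. The members and lists were chosen with earlier results of these data known. Alternatives were other scalings, another treatment of zeros, a stricter filter, blocks, other member numbers and leaving out each array. Sequences were not used here.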

Additional observations from a re-analysis of the deposited data

Results flagged for a closer look

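For each named member and group of 6 arrays, the gap in log2 intensity between the lowest or highest array and its nearest neighbour was taken. It was divided by the log2 range of the group, and a share above 0.625 was taken as unusual. Chance alone gives about 1 in 20 groups such a share when the arrays are independent. Alike arrays lie close together and leave little gap, and wounded replicate 4 had no alike partner, so this rate does not strictly apply here. Wounded replicate 4 was the lowest array by this measure for 21 named genes, and over all 95 members for 50. The shares were 0.889 for AT4G31530, 0.868 for AT2G27290, 0.811 for AT1G17160, 0.830 for AT4G16410, 0.854 for AT5G58330, 0.892 for AT1G49850, 0.738 for AT3G52070, 0.720 for AT1G50880, 0.805 for AT4G19900, 0.756 for AT4G35660, 0.884 for AT5G63290. They were 0.876 for AT2G37510, 0.879 for AT4G33760, 0.765 for AT4G32060, 0.627 for AT1G35510, 0.817 for chr31, 0.741 for FZL, 0.729 for AT4G09620, 0.797 for CCS, 0.819 for AT3G25840 and 0.716 for AT4G22490. Replicate 4 was the highest instead for CUTA, with a share of 0.728.

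In other arrays, AT3G09850 was highest in wounded replicate 1 with a share of 0.789, which rests on the 5 wounded arrays above 0 and was set against a limit of 0.71 for 5 arrays. PSB27 was lowest there with 0.671, and AT4G17070 was lowest in untreated replicate 3 with 0.648. The rank correlation of the members with the untreated mean was lowest in wounded replicate 4, with a share of 0.857.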

How the results depend on the processing

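Over 12 arrays, the count of members past the threshold was 0 under every scaling, filter, block and member number tried, and when any array other than wounded replicate 4 was left out; leaving out each array in turn gave counts of 0 to 5, the 5 without wounded replicate 4. Without wounded replicate 4, 5 members passed after median centring (2.25% of all probes) and 4 with values as deposited (2.72% of all probes), combinations that were chosen after seeing the data. The median log2 difference of the members was -0.34, and lay between -0.37 and -0.15 when 1 array was left out, with -0.15 without wounded replicate 4. It was -0.13 after median centring and -0.48 as deposited. Of the 95 members, 77 were among the 100 brightest single-gene probes of wounded plants, with 74 to 79 when 1 array was left out, and the rank correlation was 0.866, with 0.838 to 0.916. For the 50 brightest probes, 39 of 45 members stayed among them. AT2G27290 had -0.10 over 12 arrays, but 1.05 after median centring and 0.71 as deposited without wounded replicate 4; the causes of these changes beyond the scaling itself were not tested. Same-numbered wounded and untreated samples deviated together with correlations between -0.36 and 0.15, so the numbers were not taken as pairs. With the replicate number as a block, 0 members passed over 12 arrays and 0 without wounded replicate 4, with medians of -0.34 and -0.14. The ceiling of 100 and the dimmer values of wounded replicate 4 limit what these arrays can show.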

Other observations

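Wounded replicate 4 was not dim everywhere. Besides CUTA and AT1G62250, it lay above every untreated array for AT4G31470, AT4G27390, AT1G21660, AT3G04210 and AT3G09080. In the other arrays these genes lay among the middle and lower members, with untreated ranks of 50, 67, 68, 82 and 86.

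Without replicate 4, the median SD of the members was 0.29 in wounded plants and 0.21 in untreated plants on the log2 scale. Over all eligible single-gene probes it was 0.40 in wounded plants and 0.29 in untreated plants. Probes had to be above 0 in the untreated arrays only, and members were chosen by their untreated values. Every untreated array also had an alike partner, which not every wounded array had. These spreads are therefore not an even comparison of the groups, and the source of the difference was not tested.

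Of the 100 brightest probes of any kind in untreated plants, 56 name no gene in the annotation, 24 name several and 20 name 1.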
